A study of Mus musculus with 17 samples.

Results

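The 10 genes described here encode the sodium chloride cotransporters of the distal nephron and the kinase cascade that controls them. They were picked by gene symbol, and each symbol matched 1 of the 55487 gene identifiers in the count table. The members are the cotransporters Slc12a3 (NCC), Slc12a1 (NKCC2) and Slc12a2 (NKCC1), the kinases Wnk1, Wnk4, Stk39 (SPAK) and Oxsr1 (OSR1), the ubiquitin ligase parts Klhl3 and Cul3, and Pvalb (parvalbumin). Kidney RNA was counted in 17 male mice aged 16 weeks, 1 library per animal, as tags from the 3′ ends of polyadenylated transcripts. Both groups are from the BKS.Cg-Dock7m +/+ Leprdb/J stock, in which db/m animals (HE/HE, n = 8) served as lean controls and db/db animals (WT/HO, n = 9) carry a mutation that removes the signalling leptin receptor isoform, which makes them obese and diabetic. That mutation is in every cell of the body, and the label gives only kidney as the tissue, so a level is an average over all its cell types.

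Groups follow the sample titles and library names, which match the group sizes the series states, while in all 17 samples the genotype characteristic names the other genotype. Were that field right, every direction below would turn round. All db/m libraries have lower library numbers than all db/db libraries, so anything that followed that number cannot be told apart from the group. Gene counts per library ran from 3256427 to 7627747. Each of the 10 members passed the count filter (10 of 10) and was detected in all 17 libraries, from 10 counts (Oxsr1 in db/db replicate 4) to 12778 counts (Slc12a1 in db/m replicate 6). Proximal tubule markers summed to 6151 to 8966 CPM per library (CPM is a gene's counts over the TMM-scaled library size, times 1000000), thick ascending limb markers to 1483 to 4147 CPM and distal convoluted tubule markers to 3047 to 6188 CPM, so kidney transcripts were present in every library. On the first 2 principal components db/m replicate 8 and db/db replicate 8 lay farthest from their groups, and the members' values are also given without them.

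The thick ascending limb takes up sodium, potassium and chloride through NKCC2, the target of loop diuretics, and the distal convoluted tubule takes up sodium and chloride through NCC, the target of thiazides. NKCC1 is the widely expressed relative of NKCC2 and sits on the blood side of epithelial cells. WNK kinases sense chloride and potassium and phosphorylate SPAK and OSR1, which in turn phosphorylate and switch on these transporters. KLHL3 and the scaffold cullin 3 form a ubiquitin ligase that marks WNK kinases for breakdown, and mutations in WNK1, WNK4, KLHL3 or CUL3 cause familial hyperkalaemic hypertension. Most of this control works through phosphorylation and protein turnover, which transcript counts do not measure. Wnk1 also has a kidney-specific short form that lacks the kinase domain, and 3′ tags do not separate it from the full-length form because both share their 3′ end.

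The stretches just before the start of 3 members that are used in the distal convoluted tubule are shown here, because Klhl3 was the member that passed the test, Pvalb lay close to the threshold and Slc12a3 did not change detectably. Each is the 250 bases before the annotated start, from RefSeq on GRCm38.p6, 5′ to 3′ on the gene's own strand. Capitals mark matches to any of 5 motifs searched on both strands: AGAACA (the steroid hormone receptor half-site), TATAAA (the TATA box), GTTAAT (an HNF1 half-site), GGGCGG (the GC box) and CACGTG (an E-box).
Klhl3 (chr13:58113648-58113897, minus strand): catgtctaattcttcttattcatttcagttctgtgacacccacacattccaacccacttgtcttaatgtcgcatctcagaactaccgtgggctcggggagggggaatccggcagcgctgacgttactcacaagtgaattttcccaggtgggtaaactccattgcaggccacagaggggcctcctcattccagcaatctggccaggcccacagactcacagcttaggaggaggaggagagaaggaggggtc
Pvalb (chr15:78206401-78206650, minus strand): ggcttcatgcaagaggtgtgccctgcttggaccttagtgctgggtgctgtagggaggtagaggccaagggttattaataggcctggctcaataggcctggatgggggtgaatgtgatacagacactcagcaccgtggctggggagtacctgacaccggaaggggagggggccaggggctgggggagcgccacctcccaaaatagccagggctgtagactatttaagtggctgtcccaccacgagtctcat
Slc12a3 (chr8:94328958-94329207, plus strand): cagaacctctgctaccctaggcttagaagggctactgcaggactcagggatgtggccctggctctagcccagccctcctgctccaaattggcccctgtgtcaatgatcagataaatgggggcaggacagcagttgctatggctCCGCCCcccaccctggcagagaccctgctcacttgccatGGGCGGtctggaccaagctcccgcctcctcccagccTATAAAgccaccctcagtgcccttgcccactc
Slc12a3 carried a TATA box that begins 32 bases before its start, a sequence held by 12.4% of the 32851 promoters in the table, and a pair of GC boxes. The windows of Klhl3 and Pvalb held none of the 5 motifs. A GC box was found in 6 of the 9 members with an entry (Slc12a3, Wnk1, Wnk4, Stk39, Oxsr1 and Cul3) and in 32.7% of all promoters. The steroid half-site, the HNF1 half-site and the E-box were in 0 of 9, against 16.1%, 6.43% and 6.02% of all promoters. G and C made up 53.2% of the bases for Klhl3, 58.4% for Pvalb and 61.2% for Slc12a3, against a median of 52.4% over all promoters and 82.4% for Stk39. The second Pvalb entry, a start further inside the gene, also held no match. Slc12a2 had no entry. These matches are descriptions of the letters only.

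Setting db/db against db/m asks whether these transcripts differ in the diabetic animals. Of the 10 members, 1 was higher in db/db and 0 were lower (edgeR's quasi-likelihood test, called at a p under 0.05 after Benjamini-Hochberg adjustment over 12131 genes), where 3.91% of all tested genes were called higher and 3.49% lower, 7.39% in either direction. The member called was Klhl3. Log2 fold changes (db/db minus db/m) were above 0 for 7 of the 10 members and for 6121 of all 12131 genes tested. The median was 0.20 for the members against 0.00 over all genes tested. None of the 10 had groups that did not overlap, where 1.78% of all genes did. Before adjustment, edgeR's p was under 0.05 for 3 members, all higher (Klhl3, Wnk1 and Pvalb), and for 0 lower ones. At that unadjusted threshold at least 2368 and fewer than 2635 of all 12131 tested genes passed, in either direction. DESeq2 called these 3 members higher and 0 lower, with 5.12% of all genes called higher, and so did edgeR with library size only (4.99%). With limma-voom (3.59% called higher) and without the 2 libraries farthest from their groups (4.13%) Klhl3 alone was called. Without those 2 libraries the log2 fold changes of the 7 members other than Klhl3, Wnk1 and Pvalb were 0.07 for Slc12a1, 0.02 for Slc12a3, -0.01 for Slc12a2, 0.10 for Wnk4, 0.28 for Stk39, -0.19 for Oxsr1 and -0.08 for Cul3. In a kidney piece, fewer cells of a type and less RNA per cell cannot be told apart, which holds for every value below.

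**Figure D1:**
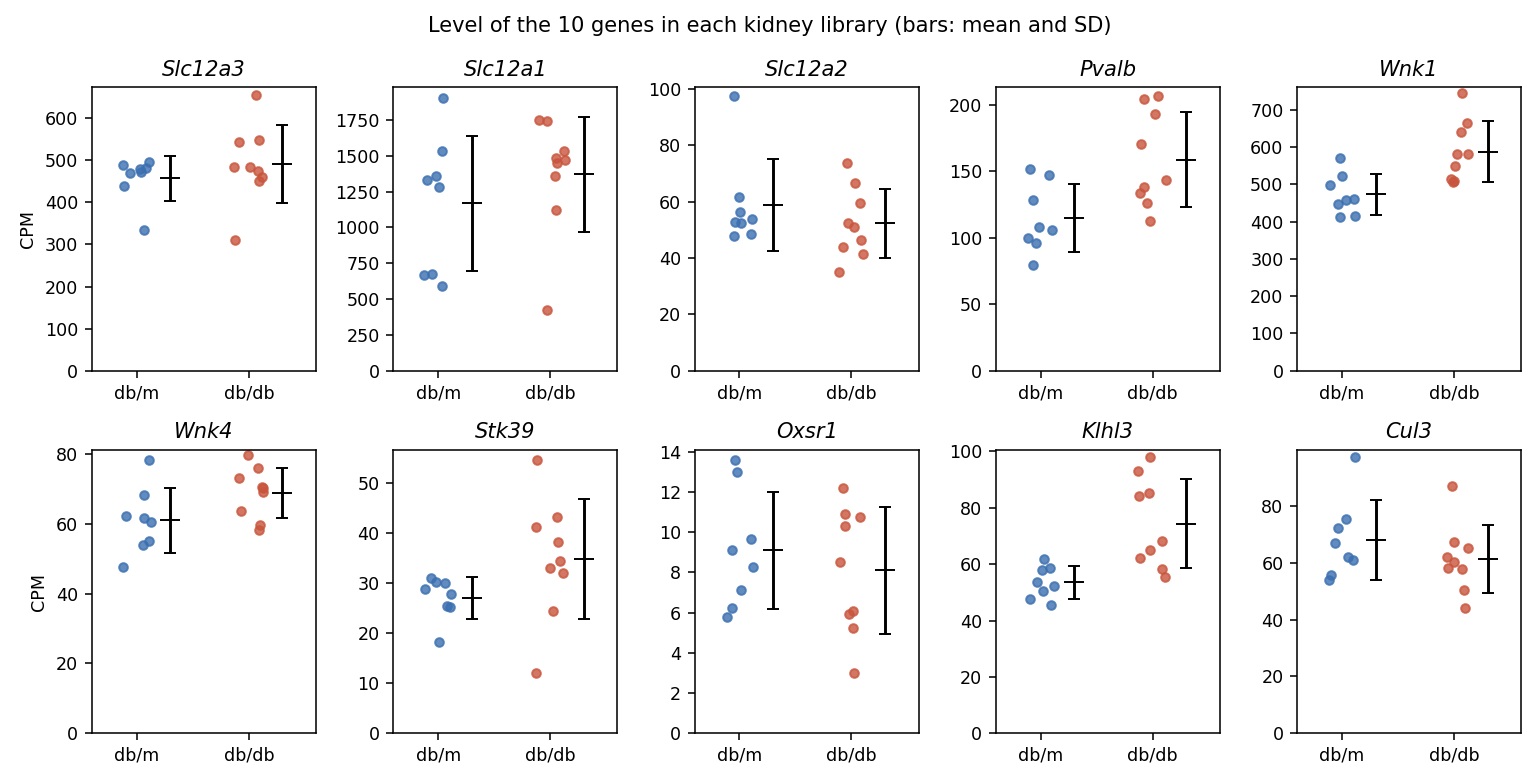
Level of each member in CPM (vertical axis from 0) in the 8 db/m (blue) and 9 db/db (orange) libraries, with the mean and SD as bars. The db/db points of Klhl3, Wnk1 and Pvalb sit higher but overlap db/m, and Slc12a1 has 4 libraries far below the rest.

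Slc12a3, the thiazide-sensitive cotransporter, was at a lowest, median and highest of 333, 475 and 496 CPM in db/m and of 311, 485 and 656 CPM in db/db. The db/m values were tightly grouped except for replicate 8, and 3 of 9 db/db libraries lay above all db/m libraries while replicate 6 lay below them. The means were 457 ± 52.9 CPM (SD, n = 8) and 491 ± 92.8 CPM (SD, n = 9). Their log2 fold change was 0.10 (SE 0.12, 95% interval -0.15 to 0.35; edgeR adjusted p = 0.685), which in linear terms allows a level between 0.903 and 1.27 times that of db/m. Leaving out 1 library at a time gave 0.04 (without db/db replicate 7) to 0.17 (without db/db replicate 6), and 0.04 without db/m replicate 8.

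Slc12a1, the cotransporter of the thick ascending limb, was the most abundant member, at 593, 1305 and 1905 CPM (lowest, median, highest) in db/m and 423, 1468 and 1753 CPM in db/db. Its values fell apart into 4 low libraries (db/m replicates 2, 4 and 8 at 677, 668 and 593 CPM and db/db replicate 1 at 423 CPM) and 13 libraries between 1124 and 1905 CPM. The groups overlapped over nearly their whole range. On the log2 scale the db/db level of Slc12a1 relative to db/m was 0.23 (SE 0.25, 95% interval -0.29 to 0.75; edgeR adjusted p = 0.650). Uromodulin (Umod), the abundant secreted protein of the same segment, was low in the same 4 libraries: 647, 703 and 658 CPM in those db/m animals against 888 to 1185 CPM in the other 5, and 370 CPM in db/db replicate 1 against 656 to 860 CPM in the other 8. The share that the sampled piece of kidney had in these low values was not tested. The same 4 libraries were the lowest of all on the first principal component (-34.3 to -44.2, with db/db replicate 6 next at -11.6). Leaving out 1 library at a time moved the log2 fold change of Slc12a1 from 0.13 (without db/m replicate 8) to 0.36 (without db/m replicate 6), and it was 0.35 without db/db replicate 1; none of these fits passed (lowest edgeR adjusted p = 0.309).

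Slc12a2, the chloride importer found in many cell types, was at 47.7, 53.2 and 97.4 CPM in db/m and 35.1, 51.1 and 73.5 CPM in db/db. The highest value was that of db/m replicate 8, while 4 of 9 db/db libraries lay below every db/m library. On the log2 scale the db/db level of Slc12a2 relative to db/m was -0.17 (SE 0.16, 95% interval -0.50 to 0.16; edgeR adjusted p = 0.582), and without db/m replicate 8 it was -0.03 (edgeR adjusted p = 0.945). Slc12a2 ran against Slc12a3, with the lowest r among pairs of the 9 members other than Oxsr1, whose mean was too low for this comparison: with each library taken as a deviation from its group's mean log2 CPM, r was -0.82 over the 17 libraries, a pair noticed after the values were seen and given as a description. In db/m, replicate 8 stood apart in both genes, at 97.4 CPM of Slc12a2 (next 61.6) and 333 CPM of Slc12a3 (next 439). The value of r without that library was not computed.

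Of the kinases at the top of the cascade, Wnk1 was at 412, 459 and 570 CPM in db/m and 506, 582 and 744 CPM in db/db. All 9 db/db libraries lay above the db/m median, 5 of them lay above every db/m library, and 6 of 8 db/m libraries lay below every db/db library. Means were 473 ± 54.3 CPM (SD, n = 8) and 588 ± 81.5 CPM (SD, n = 9), a log2 fold change of 0.31 (SE 0.10, 95% interval 0.11 to 0.52) that did not pass edgeR's test over all genes (adjusted p = 0.0605). It passed by DESeq2 (adjusted p = 0.0312), with no scaling beyond library size (edgeR adjusted p = 0.0198), without db/m replicate 5 (0.0359) and without db/db replicate 4 (0.0475), and without the 2 libraries farthest from their groups it was at 0.24 with an edgeR adjusted p of 0.156. Wnk4, the WNK kinase best known from the distal convoluted tubule, was at 47.7, 61.1 and 78.1 CPM in db/m and 58.2, 70.2 and 79.6 CPM in db/db. Its groups overlapped, with 7 of 9 db/db libraries above the db/m median, and its log2 difference was 0.17 (SE 0.10, 95% interval -0.04 to 0.39; edgeR adjusted p = 0.348).

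Stk39, which encodes SPAK, the kinase that phosphorylates NCC, was at 18.2, 28.2 and 30.9 CPM in db/m and 12, 34.3 and 54.4 CPM in db/db. In db/db 7 of 9 libraries lay above every db/m library and replicate 4 lay below every one of them, so the db/db SD was 11.9 CPM, against 4.18 CPM in db/m. On the log2 scale the db/db level of Stk39 relative to db/m was 0.36 (SE 0.20, 95% interval -0.05 to 0.78; edgeR adjusted p = 0.301), and 0.47 without db/db replicate 4 (edgeR adjusted p = 0.0585). Oxsr1, its close relative OSR1, was the least abundant member, at 5.76, 8.69 and 13.6 CPM in db/m and 3.0, 8.50 and 12.2 CPM in db/db. With 10 to 61 counts per library its interval was wide (log2 fold change -0.16, SE 0.25, 95% interval -0.67 to 0.35; edgeR adjusted p = 0.770), and 1 library left out moved the value between -0.24 (without db/db replicate 1) and -0.05 (without db/db replicate 4 or db/m replicate 2). In the annotation Oxsr1 overlaps Slc22a14 on the same strand, and Slc22a14 had 26 counts over all libraries.

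Klhl3, the adaptor that hands WNK kinases to the ligase, was at 45.5, 52.9 and 61.8 CPM in db/m and 55.4, 68.2 and 97.9 CPM in db/db. Every db/db library lay above the db/m median, 7 of 9 lay above every db/m library, and 5 of 8 db/m libraries lay below every db/db library. The mean went from 53.5 ± 5.69 CPM (SD, n = 8) to 74.4 ± 15.9 CPM (SD, n = 9), which is 1.39-fold higher (95% interval 1.16 to 1.66). The log2 fold change was 0.47 (SE 0.12; edgeR adjusted p = 0.0194), and it ranged from 0.42 to 0.53 over the 17 fits that each left out 1 library, with adjusted p from 0.0119 to 0.0460. Without the 2 libraries farthest from their groups it was 0.43 (edgeR adjusted p = 0.0474). Cul3, the cullin it binds, was at 53.9, 64.4 and 97.1 CPM in db/m and 44.1, 60.4 and 87.1 CPM in db/db. The groups of Cul3 overlapped almost fully, and its log2 fold change was -0.15 (SE 0.13, 95% interval -0.43 to 0.13; edgeR adjusted p = 0.571). It was -0.05 without db/m replicate 4 and -0.21 without db/db replicate 1.

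Pvalb, a calcium-binding protein that in kidney marks the early distal convoluted tubule, was at 79.8, 107 and 152 CPM in db/m and 113, 144 and 207 CPM in db/db. All 9 db/db libraries lay above the db/m median, 4 lay above every db/m library and 5 of 8 db/m libraries lay below every db/db library. Means were 115 ± 25.5 CPM (SD, n = 8) and 159 ± 35.7 CPM (SD, n = 9), a log2 fold change of 0.47 (SE 0.15, 95% interval 0.16 to 0.78) with an edgeR adjusted p of 0.0562. The call changed with the settings. It was made by DESeq2 (adjusted p = 0.0383), with no scaling beyond library size (edgeR adjusted p = 0.0234) and when db/m replicate 5 (edgeR adjusted p = 0.0342), db/m replicate 7 (0.0424), db/db replicate 1 (0.0480) or db/db replicate 2 (0.0392) was left out, while without the 2 libraries farthest from their groups the log2 fold change was 0.35 (edgeR adjusted p = 0.157). Pvalb is also abundant in fast skeletal muscle and in some neurons. Markers of skeletal muscle, 8 genes, were all detected, and their summed level was 10.1 to 360 CPM in db/m (median 36.9) and 1.89 to 81.7 CPM in db/db (median 14.0). Of the 6 muscle markers tested 0 passed after adjustment and 5 were lower in db/db at an unadjusted p under 0.05. The db/m replicates with the most muscle transcript, 1 and 7 (360 and 277 CPM), had 128 and 148 CPM of Pvalb, and db/m replicate 5, with the most Pvalb of its group (152 CPM), had a muscle sum of 18.2 CPM. The 4 neuron markers, all too low to test, summed to 0.460 to 2.18 CPM in db/m (median 0.842) and 0.630 to 6.22 CPM in db/db (median 2.19). Most of that sum was Nefl, a neurofilament gene, whose mean was 0.708 CPM among db/m and 2.43 CPM among db/db libraries. For Nefl 7 of 9 db/db libraries lay above every db/m library. Its db/m mean lies in the range of the floor of 3 counts (0.378 to 0.925 CPM). Nefl had 28 counts summed over db/m and 98 over db/db. Syt1 had 5 and 6, Gad1 3 and 2, and Snap25 1 and 0, so the rise was that of Nefl alone. The part of muscle or nerve transcripts in the Pvalb values was not tested.

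**Figure D2:**
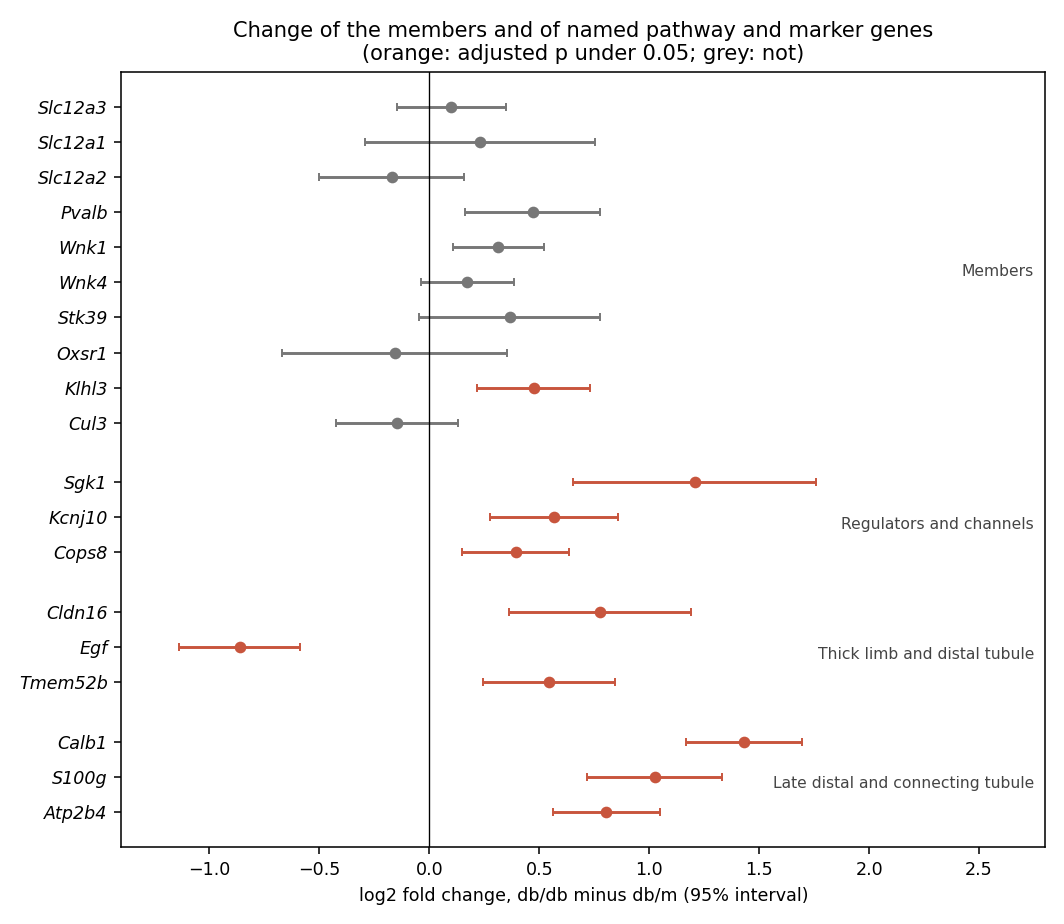
Log2 fold change (horizontal axis, db/db minus db/m, with 95% intervals) of the 10 members and of the named pathway and marker genes, with genes of adjusted p under 0.05 in orange and the others in grey. Klhl3 is the only orange member, at 0.47, and lies below the late distal markers, which reach 1.43 (Calb1).

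Tag counts at the 3′ end do not grow with transcript length, so CPM values of different genes were set side by side, although how well each 3′ end is captured differs between genes. In db/m the order of mean levels was Slc12a1, Wnk1, Slc12a3, Pvalb, Cul3, Wnk4, Slc12a2, Klhl3, Stk39 and Oxsr1. Neighbours whose ranges over libraries did not overlap were Slc12a1 above Wnk1, Slc12a3 above Pvalb, Klhl3 above Stk39 and Stk39 above Oxsr1. Wnk1 and Slc12a3 overlapped, as did all neighbours from Pvalb to Klhl3. In db/db the order was the same down to Pvalb, and Klhl3, Wnk4, Cul3, Slc12a2, Stk39 and Oxsr1 followed. There the ranges did not overlap for Slc12a3 above Pvalb and Pvalb above Klhl3, and they overlapped for the other neighbours, although Stk39 was above Oxsr1 in 9 of 9 libraries.

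Ratios between 2 genes within a library do not depend on how libraries are scaled, and 6 were compared between the groups by an exact two-sided permutation test, adjusted by Benjamini-Hochberg over the 6. The ratio of Slc12a3 to Calb1 (calbindin, of the late distal convoluted and connecting tubule) was lower in db/db. The mean log2 ratio of Slc12a3 to Calb1 was 1.97 ± 0.11 (SD, n = 8) in db/m and 0.64 ± 0.29 (SD, n = 9) in db/db, and all 9 db/db libraries lay below every db/m library. The difference was -1.33 (exact permutation p = 4.11e-05, the smallest 17 libraries can give; adjusted p = 0.000247). Calb1 itself went from 116 ± 16.7 to 314 ± 62.6 CPM, while the means of Slc12a3 were 457 and 491 CPM. Their log2 fold changes were 1.43 (SE 0.13) for Calb1 and 0.10 (SE 0.12) for Slc12a3. The ratio's p-value therefore restates the change of Calb1 and is not a separate result on Slc12a3. Calb1 was also chosen with earlier results of these data known. The next 2 ratios likewise reuse the single-gene changes given above, so their p-values are not separate results on those genes. Log2 fold changes were 0.47 for Pvalb against 0.10 for Slc12a3, and 0.47 for Klhl3 against -0.15 for Cul3. The log2 ratio of Pvalb to Slc12a3 averaged -2.01 ± 0.24 among db/m and -1.63 ± 0.23 among db/db libraries, a difference of 0.38 with 9 of 9 db/db libraries above the db/m median (exact permutation p = 0.00596, adjusted p = 0.0179; without the 2 libraries farthest from their groups 0.35, exact permutation adjusted p = 0.0513). The log2 ratio of Klhl3 to Cul3 differed by 0.60, from -0.33 ± 0.28 (db/m) to 0.27 ± 0.50 (db/db), with 7 of 9 db/db libraries above the db/m median (exact permutation p = 0.0106, adjusted p = 0.0212; without those 2 libraries 0.47, exact permutation adjusted p = 0.0743).

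The other 3 ratios did not pass. Slc12a3 to Slc12a1 differed by -0.17 (exact permutation adjusted p = 0.596), with SDs of 0.56 (db/m) and 0.68 (db/db) that came with the 4 libraries low in Slc12a1. Wnk4 to Wnk1 differed by -0.13 (exact permutation adjusted p = 0.295), with 4 of 9 db/db libraries below every db/m library and the other 5 inside the db/m range. Stk39 to Oxsr1 differed by 0.48 (exact permutation adjusted p = 0.101), with 8 of 9 db/db libraries above the db/m median. Without db/db replicate 1 the last was 0.62 (exact permutation adjusted p = 0.0184).

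**Figure D3:**
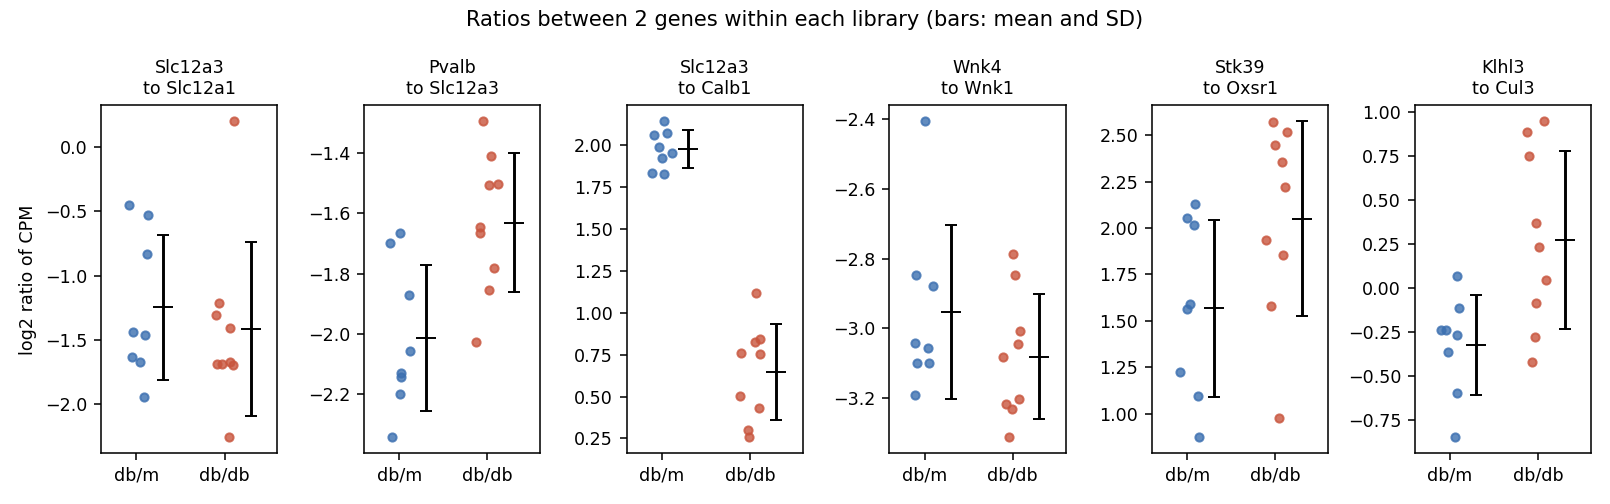
Log2 ratio of CPM between 2 genes (vertical axis, a separate scale per panel) in each db/m (blue) and db/db (orange) library, with the mean and SD as bars. The groups are fully apart for Slc12a3 to Calb1 and overlap in the other 5 panels.

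The cascade's other genes came from lists of partners and regulators. Of 25 genes that act with or on WNK, SPAK and NCC, 23 were tested and 3 were higher and 0 lower in db/db. Over all tested genes 3.91% were called higher and 3.49% lower. The list's median log2 fold change was 0.13. Sgk1, an aldosterone-induced kinase that restrains the ligase NEDD4L, was at 22.8, 41.3 and 72.0 CPM in db/m and 35.5, 104 and 149 CPM in db/db. The log2 fold change was 1.21 (SE 0.27; edgeR adjusted p = 0.00605), with 6 of 9 db/db values above all db/m values. Kcnj10, the basolateral potassium channel subunit that sets chloride in distal convoluted tubule cells, went from 16.4 ± 2.58 to 24.4 ± 5.18 CPM (0.57, SE 0.14; edgeR adjusted p = 0.0139). Its partner subunit Kcnj16 was at 0.15 (SE 0.11; edgeR adjusted p = 0.457). For Kcnj10 7 of 9 db/db libraries lay above every db/m library and all 9 lay above the db/m median. The calls of Sgk1 and Kcnj10 were kept in all 17 fits that left out 1 library.

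The scaffold proteins that activate SPAK and OSR1, Cab39 (0.11, SE 0.15) and Cab39l (0.15, SE 0.15), did not pass the test, nor did Nedd4l (0.14; edgeR adjusted p = 0.384). Klhl2, the closest relative of Klhl3 and also an adaptor for WNK kinases, was at 19.8 to 28.5 CPM in db/m and 11.3 to 22.5 CPM in db/db (-0.38, SE 0.14), and did not pass (edgeR adjusted p = 0.0979). All 9 of its db/db libraries lay below the db/m median of 23.1 CPM. Too few counts were found to test Wnk3 (5 counts summed over db/m libraries, 17 over db/db) and the mineralocorticoid receptor gene Nr3c2 (43 and 50). Klhl2, Cab39, Cab39l, Nedd4l, Kcnj16, Wnk3 and Nr3c2 were named after their values were seen.

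Of 19 genes of the cullin-RING ligase machinery 18 were tested, 1 was higher and 0 were lower (median 0.07). That is near the 3.91% higher and 3.49% lower over all tested genes. The gene called was Cops8, a subunit of the COP9 signalosome that removes NEDD8 from cullins (29.1 ± 2.10 to 38.3 ± 7.67 CPM; 0.39, SE 0.12; edgeR adjusted p = 0.0434), and its call ended in 12 of 17 fits that left out 1 library, with adjusted p up to 0.0847, and without the 2 libraries farthest from their groups (0.36, edgeR adjusted p = 0.0786). The genes of next smallest p were the NEDD8-conjugating enzyme Ube2m (0.42, SE 0.17; edgeR adjusted p = 0.160) and Cul2 (-0.50, SE 0.29; edgeR adjusted p = 0.328). In the rest of the SLC12 family, 4 of 6 were tested and 0 were called by edgeR, DESeq2 or limma-voom. Before adjustment 1 of them, Slc12a4, was below 0.05 with edgeR. The potassium chloride cotransporter Slc12a4 was at 0.41 (SE 0.18; edgeR adjusted p = 0.206) and the orphan Slc12a9 at 0.22 (SE 0.12; edgeR adjusted p = 0.288).

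Markers of the segments in which the members are used were called in unequal numbers, where 3.91% of all tested genes were higher and 3.49% lower. In the late distal convoluted and connecting tubule 6 of 8 were higher and 0 lower (median 0.85), including Calb1 (1.43, SE 0.13), the calcium-binding S100g (1.02, SE 0.15) and the calcium pump Atp2b4 (0.81, SE 0.12), each with 9 of 9 db/db libraries above every db/m library. Their summed level was 1450 to 1885 CPM in db/m and 2301 to 3511 CPM in db/db. Of the 10 distal convoluted tubule markers that are not members, 3 were higher and 1 lower. Those of smallest p were Egf (-0.86, SE 0.13), Kcnj10 and Tmem52b (226 ± 34.7 to 330 ± 87.5 CPM; 0.54, SE 0.14; edgeR adjusted p = 0.0212, and 0.0501 without db/m replicate 4 and 0.0598 without the 2 libraries farthest from their groups). Of 13 thick ascending limb markers other than Slc12a1, 4 were higher and 1 lower, with Cldn16, the paracellular magnesium and calcium channel, at 0.78 (SE 0.20) and Umod at -0.35 (SE 0.15; edgeR adjusted p = 0.188). The part that the makeup of the sampled tissue has in the members' values was not tested.

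Markers of other cell types were read in the same way, beside the 3.91% higher and 3.49% lower over all tested genes. Of the principal cell list 4 of 8 were higher and 1 lower, of the intercalated cell list 3 of 7 were higher, of the podocyte list 2 of 5 were higher and of the proximal tubule list 1 of 8 was higher. No marker was called among 5 of endothelium, 3 tested of macrophages, 5 of red blood cells, 3 tested of adipocytes and 4 of smooth muscle, by edgeR, DESeq2 or limma-voom after adjustment. At an unadjusted edgeR p under 0.05 they held 1 lower in endothelium, 1 lower in macrophages and 0 in the other 3 lists. Of 2 tested genes on the lymphocyte list 1 was lower, Ptprc (-1.49, SE 0.19), which is not limited to lymphocytes. Ighm was not called (edgeR adjusted p = 0.348), and Cd3e and Cd79a had too few counts to test.

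Within each group the members were also set against one another across animals. For 6 pairs in 2 groups, 12 relations in all, Pearson's r of log2 CPM passed adjustment in none (lowest Benjamini-Hochberg adjusted p = 0.0551, exact permutation), while Spearman's rho passed in 3. Slc12a3 and Pvalb in db/db had r = 0.723 (exact permutation p = 0.0123; rho = 0.833, p = 0.00827, adjusted p = 0.0331; n = 9), and without the 2 libraries farthest from the Slc12a3 median, replicates 6 and 7, r was 0.848 (exact permutation p = 0.0165). Slc12a3 and Klhl3 in db/db had r = 0.733 (exact permutation p = 0.00939; rho = 0.883, p = 0.00308, adjusted p = 0.0185; n = 9), and r = 0.819 without those 2 libraries (exact permutation p = 0.0252). Slc12a3 and Wnk4 in db/m had r = 0.768 (exact permutation p = 0.0138; rho = 0.929, p = 0.00223, adjusted p = 0.0185; n = 8), and r = 0.834 without replicates 3 and 8 (exact permutation p = 0.0375). With 2 libraries left out, none of these 3 values of r passed adjustment over the 12 relations (exact permutation, adjusted p = 0.15 for each). The same pairs in the other group did not pass. Slc12a3 and Pvalb in db/m went from r = 0.647 to -0.259 without replicates 3 and 8, so that relation rested on those animals. Slc12a3 and Slc12a1 had r = 0.531 across the db/m animals (rho = 0.452; exact permutation p = 0.151 for r and 0.267 for rho). Across the db/db animals r was 0.0704 and rho 0.133 (exact permutation p = 0.753 and 0.744). Whether a relation differed between the groups was not tested. These members also followed the first principal component of all tested genes. Their r with it in db/db was 0.52 for Slc12a3, 0.73 for Pvalb and 0.59 for Klhl3. Across db/m libraries it was 0.51 for Slc12a3 and 0.61 for Wnk4. The part of that shared axis in the relations was not tested.

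**Figure D4:**
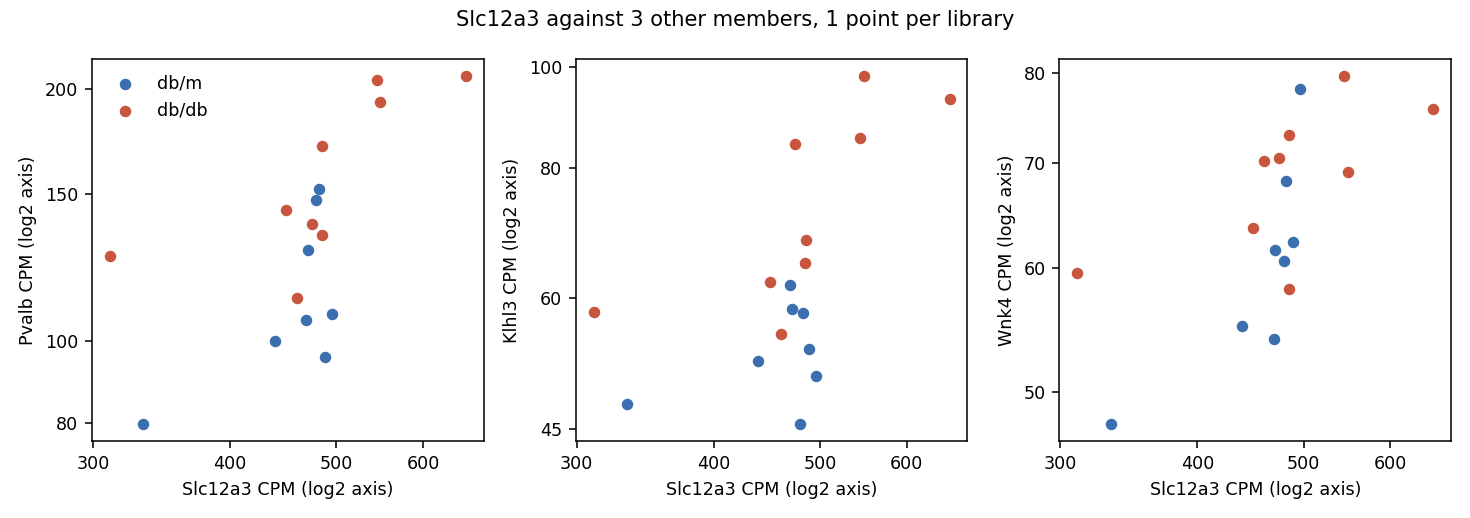
CPM of Pvalb, Klhl3 and Wnk4 (vertical axes, log2) against CPM of Slc12a3 (horizontal axis, log2) with 1 point per library, db/m in blue and db/db in orange. In db/db the libraries with more Slc12a3 have more Pvalb and Klhl3 (rho 0.833 and 0.883), while most db/m libraries lie close together on the horizontal axis.

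Genes with the most similar pattern were sought for 3 members among 8076 others with a mean of at least 10 CPM, by Pearson's r over 17 libraries of log2 CPM taken as deviations from the group means. These values describe a search over many genes that share libraries and depth. For Slc12a3 they were the folate enzyme Aldh1l1 (r = 0.853), the transcription factor Lhx1 (0.844) and the respiratory chain subunit Ndufa10 (0.829). For Pvalb they were Naxe, which repairs damaged NADH and NADPH (0.928), Syngr1 (0.921) and pyruvate carboxylase Pcx (0.907). For Slc12a1 they were hexokinase Hk1 (0.934), Nccrp1 (0.931) and Umod (0.920). The last 3 values rest largely on the 4 libraries low in Slc12a1, since over the other 13 libraries r was 0.660, 0.668 and 0.419. Of these 9 genes Nccrp1 was called between the groups (1.35, SE 0.36; edgeR adjusted p = 0.0211).

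**Figure D5:**
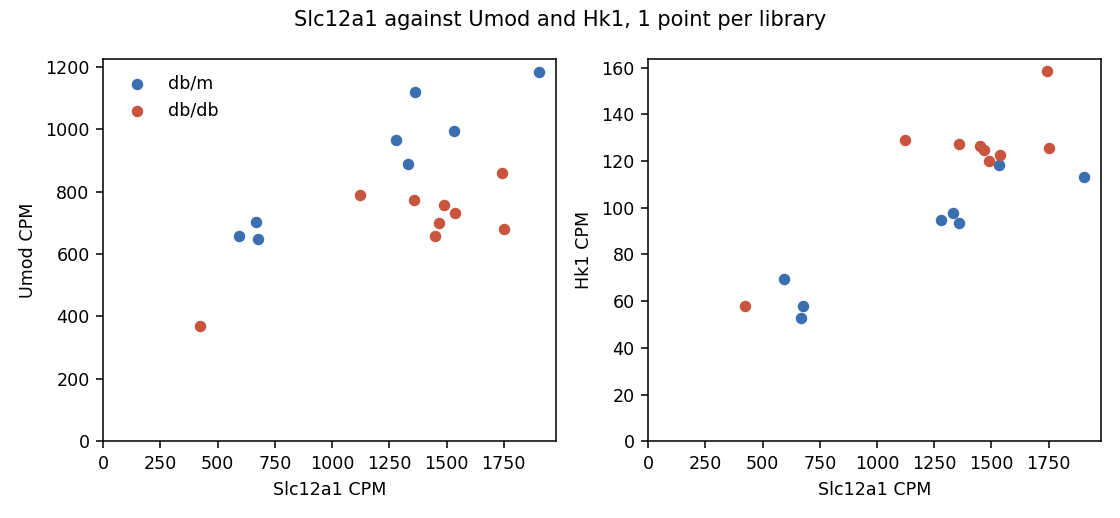
CPM of Umod and Hk1 (vertical axes from 0) against CPM of Slc12a1 (horizontal axis from 0) with 1 point per library, db/m in blue and db/db in orange. The 4 libraries with the least Slc12a1 (423 to 677 CPM) are also the lowest of their group in both other genes.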

How the data were processed

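PolyA RNA from the kidneys of 17 mice (db/m 8, db/db 9) was sequenced as QuantSeq 3′ tags, per the labels' protocols. The deposited table holds whole-number counts per Ensembl mouse gene, with 55487 genes. The submitters' processing notes list STAR 2.7.3a, HTSeq 2.16.2 and the human build GRCh38, although the identifiers are of mouse; the annotation used for counting is not given in the sources used here. The protocol text speaks of cultured cells in plates while the tissue field says kidney. Unassigned reads (19.3% with no feature, 0.533% ambiguous) were left out of library sizes. Symbols came from the reference name table for 55141 identifiers.

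From the counts, genes were kept by filterByExpr (minimum count 10), scaled by TMM and tested with edgeR 4.0.16 (quasi-likelihood, R 4.3.3) over 12131 genes with Benjamini-Hochberg adjustment at 0.05. DESeq2 1.42.0 and limma-voom (limma 3.58.1) were alternatives, with other scalings, no filter and each library left out. The scripts were tested on simulated data. CPM is counts over the TMM-scaled library size times 1000000, and log2 CPM for ratios and correlations adds a prior count of 2. Ratios and within-group correlations were tested by exact two-sided permutation. No replicate pair agreed within counting noise (lowest chi-square per degree of freedom 3.57). Depth was 3256427 to 7627747 gene counts, and 3 counts, the floor, equal 0.378 to 0.925 CPM. Promoters are from RefSeq and chromosomes and overlaps from GENCODE M21 on the same build.

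The members and lists were chosen with earlier results of these data known. Named genes are all members, genes that passed in the 3 pathway lists with the 3 of smallest p in each, the 3 markers of smallest p in the 3 distal segment lists, and the 3 genes most like Slc12a3, Slc12a1 and Pvalb. Some genes that this rule names are not reported here, though list counts include them. Apart from Slc22a14 at Oxsr1, annotated overlapping genes with any counts were Gm16199 at Wnk1 (43 counts) and antisense Gm11615 at Wnk4 (18 counts), and Gm37902 and Gm37262 at Cul3 had 74 and 13 over all libraries.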

Additional observations from a re-analysis of the deposited data

Results flagged for a closer look

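Single libraries stood far from the rest of their group for 4 members, by Dixon's criterion (the gap to the nearest other library against the group's range). It was applied to 62 groups of values and passes about 1 in 20 groups by chance. Slc12a1 in db/db replicate 1 was at 423 CPM, with the next at 1124 CPM. Slc12a3 was lowest in db/m replicate 8 at 333 CPM (next 439 CPM) and in db/db replicate 6 at 311 CPM (next 450 CPM). Slc12a2 was highest in db/m replicate 8, at 97.4 CPM against 61.6 CPM in the next. Stk39 was lowest in db/m replicate 4, at 18.2 CPM with 25.2 CPM in the next.

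Among the ratios, the log2 ratio of Slc12a3 to Slc12a1 was 0.20 in db/db replicate 1, where the next library was at -1.21. The log2 ratio of Wnk4 to Wnk1 was -2.41 in db/m replicate 6, where the next was at -2.85. What sets these libraries apart was not tested.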

How the results depend on the processing

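The number of members called higher was 3 by DESeq2 and with library size only, and 1 to 3 over the fits leaving out 1 library, where db/m replicate 5 gave 3 and db/m replicate 7 and db/db replicates 1, 2 and 4 gave 2; 0 were called lower in any fit. Over those fits 319 to 666 genes were higher and 318 to 571 lower. Replicate numbers are shared by both groups, but the labels do not tie them to litters or days: pair correlations ran from -0.454 to 0.212, 2 of 8 were over 0.1 and 0 of 8 libraries correlated best with their own number. With the replicate number as a block (numbers 1 to 8) 194 genes were higher and 231 lower, against 380 and 352 in the same libraries without it, and 0 members were called (Klhl3 0.48, edgeR adjusted p = 0.0972). Leaving out 1 library, the log2 ratio differences ran from -0.37 to -0.06 for Slc12a3 to Slc12a1, 0.33 to 0.43 for Pvalb to Slc12a3, -1.39 to -1.28 for Slc12a3 to Calb1, -0.17 to -0.05 for Wnk4 to Wnk1, 0.38 to 0.62 for Stk39 to Oxsr1 and 0.51 to 0.68 for Klhl3 to Cul3. Stk39 to Oxsr1 passed without db/db replicate 1 (0.62). Without the 2 farthest libraries, chosen after seeing the data, Pvalb to Slc12a3 (0.35) and Klhl3 to Cul3 (0.47) did not pass. Without the 2 libraries farthest from the first gene's median, r in db/m turned to -0.259 for Slc12a3 with Pvalb, -0.544 for Slc12a3 with Klhl3 and -0.202 for Wnk1 with Wnk4. The causes were not tested. Depth limits Oxsr1 most, with 10 to 61 counts per library.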
